A study of Eragrostis tef with 16 samples.

Results

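Nramp (natural resistance-associated macrophage protein) transporters move divalent metal ions across membranes together with protons. In plants they carry manganese and iron, and some also carry cadmium or zinc, either into root cells from the soil solution or out of the vacuole into the cytosol. In rice, NRAMP5 is the main route by which roots take up manganese, and in Arabidopsis NRAMP3 and NRAMP4 release stored iron from the vacuole. The 5 tef genes described here are Nramp1 (Et_5A_041073), Nramp2 (Et_4A_034655), Nramp3 (Et_2B_020954), Nramp4 (Et_3B_028366) and Nramp5 (Et_5A_041086), out of 68255 genes in the count table. They were taken by identifier, with the names the study gave them, from its list of metal transporters, which was drawn up on these samples. The study's picture of these genes repeats the name NRAMP5 and lacks NRAMP6, unlike its list, so the values here follow the identifiers. A shared number in the name does not show that a tef gene has the role of the rice or Arabidopsis gene with that number.

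The counts come from tef (Eragrostis tef), an allotetraploid cereal, grown in hydroponics for about a month from seed of a single accession. All plants received a modified Hoagland solution in which ammonium nitrate took the place of calcium nitrate. Control plants had 1 mM Ca and low Ca plants 0.01 mM Ca. Roots and shoots of each were sequenced as low Ca roots (LCR), low Ca shoots (LCS), control roots (ConR) and control shoots (ConS), with 4 libraries from independent biological replicates per group, identified by the S number of the label (ConS S13 to S16, ConR S9 to S12, LCS S5 to S8 and LCR S1 to S4). The labels do not tell which root and shoot libraries came from the same plants, nor which experiment a library came from. The tests therefore took all 16 libraries as unpaired. Each library is a whole organ, so fewer cells of a type and less RNA per cell cannot be told apart.

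Library totals lay between 14640539 and 15590039 reads in ConS, 9959542 and 11720368 in LCS, 11587068 and 17659238 in ConR, and 6276818 and 10166944 in LCR, so every low Ca library was shallower than every control library of its tissue. Levels are in CPM, the reads of a gene for each 1000000 reads of a library total after TMM scaling. A change is given as the log2 fold change (in A vs B, A over B) with its standard error (SE) and the edgeR p-value adjusted by Benjamini-Hochberg over 56746 genes tested. A gene was called at an adjusted p below 0.05, and all 5 members were among the genes tested. CPM is not corrected for gene length, so levels are compared between groups and not between genes. No annotation of tef was used, and the tissue labels were not checked against marker genes, but the first principal component (72.3% of the variance) put all 8 root libraries on one side and all 8 shoot libraries on the other. On this component LCS S8 lay at 128, where LCS S5, S6 and S7 lay at 194, 189 and 227. In counts of single genes, ConR S11 and ConS S15 stood apart more often than other libraries. By Dixon's gap test at 95%, run on CPM, 35507 genes with a mean count of at least 20 were checked. ConR S11 lay far above the other 3 libraries of its group in 3.53% of them and ConS S15 in 2.3%. The other 14 libraries did so in 0.234% to 1.95%, with ConS S16 the highest of these. For part of the calls and sizes named here that changed with either library, the value without it is given.

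The members fell into a root pair, a shoot pair and 1 gene that was not called between the tissues. Nramp5 and Nramp4 had more transcript in roots, and Nramp2 and Nramp3 had more in shoots, at both Ca levels. The 4 groups of Nramp1 all overlapped each other. At control Ca, 2 of the 5 members were called higher in roots, where 28.7% of all genes tested were, and 2 were called lower, where 23.7% were. At low Ca the same numbers, 2 and 2, stood against 20.0% and 22.7% of all genes. The libraries of roots and shoots did not overlap for 4 of the 5 members at either Ca level, against 47.8% of all genes at control Ca and 40.8% at low Ca. With so many tissue differences in the background, these counts do not set the family apart.

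**Figure D1:**
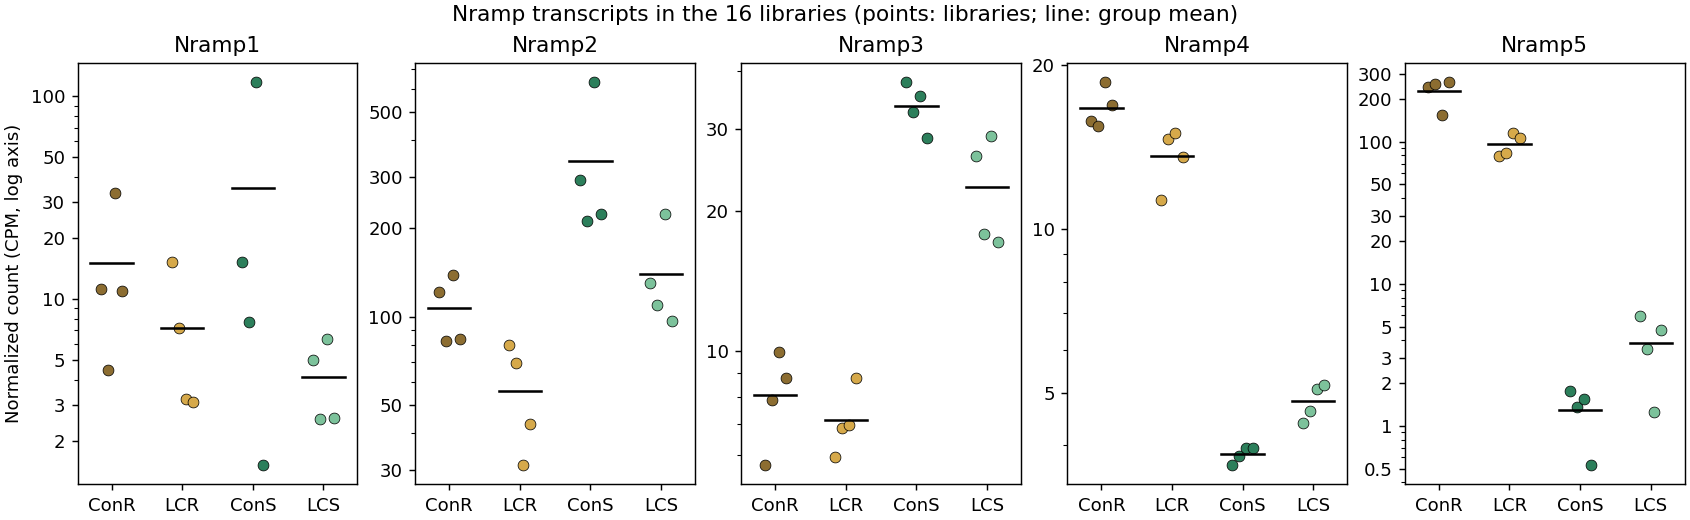
Normalized count (CPM, log axis, with its own range in each panel) of the 5 Nramp genes in the 16 libraries, where each point is a library and each line a group mean. Nramp3, Nramp4 and Nramp5 separate roots from shoots completely, with Nramp3 higher in shoots. Nramp2 is higher in shoots at the same Ca level. The Nramp1 groups overlap, with ConS S15 at 118 CPM far above the others.

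Nramp5 was the member with the widest tissue difference and the only one called for low Ca in both tissues, in opposite directions. In ConR it measured 243 CPM in S9, 255 in S10, 154.5 in S11 and 262 in S12. In LCR it measured 79.6 CPM in S1, 82.6 in S2, 115 in S3 and 107 in S4. Every LCR library was below every ConR library. In shoots the transcript was scarce. It measured 1.76 CPM in S13, 1.36 in S14, 1.55 in S15 and 0.532 in S16 of ConS, which are 7 to 21 reads per library. In LCS it measured 5.94 CPM in S5, 3.48 in S6, 1.25 in S7 and 4.70 in S8. Among LCS libraries 3 were above every ConS library, while S7 lay within the ConS range.

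The order of the Nramp5 levels was therefore ConR, LCR, LCS and ConS, and only the last neighbours overlapped. In roots the mean fell from 229 ± 50.1 CPM at control Ca to 96.1 ± 17.6 CPM at low Ca (SD, n = 4), 2.38-fold lower, with a log2 fold change of -1.25 (SE 0.31, adjusted p = 0.0359 by edgeR). It was the 1 member called down in LCR vs ConR, where 1.33% of all genes tested were called down and 1.90% up. The call was lost when any library of either root group other than LCR S3 and ConR S11 was left out (adjusted p from 0.0831 to 0.121), while the log2 fold change stayed between -1.40 and -1.17 over all 16 omissions. Without ConR S11, the control root library with the least Nramp5, it was -1.40 (adjusted p = 0.0142).

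In shoots Nramp5 rose from 1.30 ± 0.537 CPM in ConS to 3.84 ± 2 CPM in LCS (SD, n = 4). The log2 fold change was 1.58 (SE 0.39, adjusted p = 0.00711 by edgeR), or 2.99-fold, and the gene was called with each of the 16 libraries left out. Over the 4 ConS libraries the level rests on 60 reads, which gives 1.27 CPM with an exact Poisson interval of 0.970 to 1.64, and over the 4 LCS libraries on 153 reads, which gives 3.91 CPM with an interval of 3.31 to 4.58. These 95% intervals cover counting error only. In the interaction test, the shoot response of Nramp5 exceeded its root response by 2.83 on the log2 scale (SE 0.50, adjusted p = 0.00236), a test that 5.91% of all genes passed. Nramp5 passed it with each library left out, at 2.53 to 3.12, and without ConR S11 and ConS S15 together, at 3.05 (adjusted p = 0.0028). The difference between roots and shoots was accordingly larger at control Ca, with a log2 fold change of 7.46 (SE 0.42, adjusted p = 4.33e-11) for ConR vs ConS, than at low Ca, with 4.63 (SE 0.37, adjusted p = 5.51e-09) for LCR vs LCS.

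Nramp4 was the other root gene, and its libraries lay close together. It measured 15.8, 15.5, 18.6 and 16.9 CPM in ConR S9 to S12 and 11.3, 14.6, 15.04 and 13.6 CPM in LCR S1 to S4. In shoots it measured 3.69, 3.83, 3.96 and 3.95 CPM in ConS S13 to S16 and 4.41, 4.64, 5.09 and 5.18 CPM in LCS S5 to S8. None of the 4 groups overlapped with another, and the order was ConR, LCR, LCS and ConS, as for Nramp5. The tissue difference was 2.11 on the log2 scale (SE 0.15, adjusted p = 1.19e-09) for ConR vs ConS and 1.50 (SE 0.15, adjusted p = 1.64e-07) for LCR vs LCS, and no shoot library reached the range of the roots.

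The response of Nramp4 to low Ca was not called in either tissue. All LCR libraries lay below all ConR libraries at a log2 fold change of -0.29 (SE 0.14, 95% interval -0.60 to 0.02, adjusted p = 0.264), and all LCS libraries lay above all ConS libraries at 0.32 (SE 0.16, 95% interval -0.02 to 0.67, adjusted p = 0.144). The intervals include 0, and they also include changes of up to 1.52-fold down in roots and 1.59-fold up in shoots. The difference between the responses was 0.61 (SE 0.21, adjusted p = 0.105), and it was not called under any alternative. The signs were those of Nramp5, and the Nramp5 difference of responses was the one that passed.

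**Figure D2:**
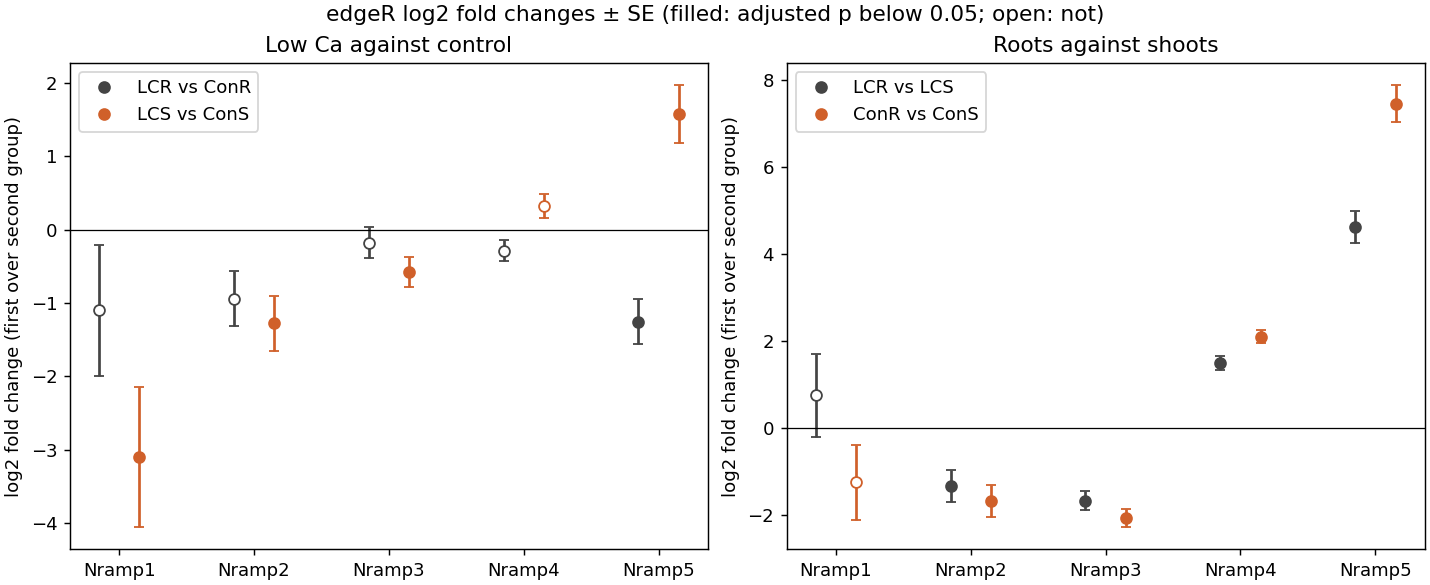
Log2 fold changes ± SE of the 5 Nramp genes by edgeR, on the left for low Ca against control in roots (LCR vs ConR) and shoots (LCS vs ConS) and on the right for roots against shoots at low Ca (LCR vs LCS) and control Ca (ConR vs ConS), with filled points for an adjusted p below 0.05. Nramp5 is at -1.25 in roots and 1.58 in shoots on the left, and at 4.63 and 7.46 on the right.

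Nramp3 was a shoot gene with a small response. In ConS it measured 37.9, 32.6, 35.4 and 28.7 CPM in S13 to S16, and in LCS 26.3, 17.9, 29.1 and 17.2 CPM in S5 to S8. Only LCS S7 reached into the ConS range, by lying above ConS S16. In roots it measured 5.71, 7.85, 9.97 and 8.79 CPM in ConR S9 to S12 and 5.94, 6.84, 6.94 and 8.76 CPM in LCR S1 to S4, and the LCR range lay within the ConR range. No root library reached the range of the shoots. The log2 fold change was -2.06 (SE 0.21, adjusted p = 1.11e-07) for ConR vs ConS and -1.66 (SE 0.21, adjusted p = 2.86e-06) for LCR vs LCS, or 4.16-fold and 3.16-fold lower in roots.

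Low Ca lowered Nramp3 in shoots at a log2 fold change of -0.57 (SE 0.20, adjusted p = 0.0423), which is 1.49-fold. This call stood close to the threshold. It was lost in 8 of the 16 omissions of 1 library, among them those of LCR S2, LCR S3 and ConR S10, which are not part of the comparison, and also with upper-quartile scaling and in a fit on the 8 shoot libraries alone. The log2 fold change remained negative throughout, from -0.72 to -0.45 over all alternatives. In roots it was -0.18 (SE 0.21, adjusted p = 0.658), with a 95% interval of -0.64 to 0.28, and the responses of shoots and roots were not shown to differ (difference -0.40, SE 0.29, adjusted p = 0.501).

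Nramp2 was also a shoot gene, with a wider spread. In ConS it measured 293 CPM in S13, 212 in S14, 632 in S15 and 225 in S16. In LCS it measured 130 CPM in S5, 110 in S6, 225 in S7 and 96.7 in S8. LCS S7 lay above ConS S14, and the other 3 LCS libraries lay below every ConS library. In roots it measured 122, 82.5, 139 and 84.1 CPM in ConR S9 to S12 and 79.9, 69.6, 31.2 and 42.9 CPM in LCR S1 to S4, so that the root groups did not overlap. The neighbouring LCS and ConR groups did overlap, and the order of the means was ConS, LCS, ConR and LCR.

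The log2 fold change of Nramp2 was -1.67 (SE 0.37, adjusted p = 0.000925) for ConR vs ConS and -1.33 (SE 0.37, adjusted p = 0.00708) for LCR vs LCS, with every root library below every shoot library at the same Ca. Without ConS S15 the value for ConR vs ConS was -1.19 (adjusted p = 0.00455). Low Ca lowered it 2.42-fold in shoots, at a log2 fold change of -1.28 (SE 0.37, adjusted p = 0.017). ConS S15 carried much of this difference. Without ConS S15 the value was -0.84 (adjusted p = 0.0691), and without LCS S6 or LCS S8 it was -1.18 (adjusted p = 0.0539) and -1.13 (adjusted p = 0.0601). In roots the log2 fold change of -0.94 (SE 0.37, unadjusted p = 0.0205, adjusted p = 0.159) was not called, although no LCR library reached the ConR range. It was called only in a fit on the 8 root libraries alone, at -0.97 (adjusted p = 0.0481). The shoot and root responses were not shown to differ (difference -0.34, SE 0.52, adjusted p = 0.785), and without ConS S15 the difference had the other sign, 0.14.

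Nramp1 had the widest spread of the 5 genes. In ConS it measured 15.2 CPM in S13, 7.74 in S14, 118 in S15 and 1.52 in S16, a 77.4-fold range within a group. In LCS it measured 4.98, 2.55, 6.33 and 2.59 CPM in S5 to S8. In ConR it measured 11.2 CPM in S9, 4.49 in S10, 33.4 in S11 and 10.9 in S12, and in LCR 15.3, 7.19, 3.20 and 3.11 CPM in S1 to S4. All 4 groups overlapped each other.

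Over the 4 libraries, Nramp1 was at 35.5 ± 55 CPM in ConS and 4.11 ± 1.87 CPM in LCS (SD, n = 4), and edgeR called it lower in LCS at a log2 fold change of -3.10 (SE 0.95, adjusted p = 0.0232). Without ConS S15 this value was -1.04 (adjusted p = 0.311), and without LCS S6 or LCS S8 it was -2.93 with an adjusted p of 0.0654 and 0.0711. By limma-voom it was -1.57 (adjusted p = 0.347). In roots the log2 fold change was -1.10 (SE 0.89, adjusted p = 0.504), with a 95% interval of -3.05 to 0.85, and without ConR S11 it was -0.34 (adjusted p = 0.865). Nramp1 did not pass in either comparison of the tissues. Its log2 fold change for ConR vs ConS was -1.24 (SE 0.86, adjusted p = 0.241), and it was 0.86 (adjusted p = 0.316) without ConS S15. For LCR vs LCS it was 0.76 (SE 0.95, adjusted p = 0.557).

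In LCS vs ConS as a whole, 3 members (Nramp1, Nramp2 and Nramp3) were called down, where 9.04% of all genes tested were, and 1 member (Nramp5) up, where 16.7% were. Without ConS S15, LCS S6 or LCS S8, Nramp5 was the only member called. It was also the only one called without ConR S11 and ConS S15 together, where the log2 fold change was -1.04 (adjusted p = 0.243) for Nramp1, -0.84 (adjusted p = 0.0581) for Nramp2 and -0.60 (adjusted p = 0.0521) for Nramp3. The libraries of LCS and ConS did not overlap for 1 of the 5 members (Nramp4), against 22.7% of all genes, and those of LCR and ConR did not overlap for 3 (Nramp2, Nramp4 and Nramp5), against 15.4%. The median log2 fold change of the 5 members was -0.94 in roots and -0.57 in shoots, and that of all genes tested was 0.03 and 0.11.

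**Figure D3:**
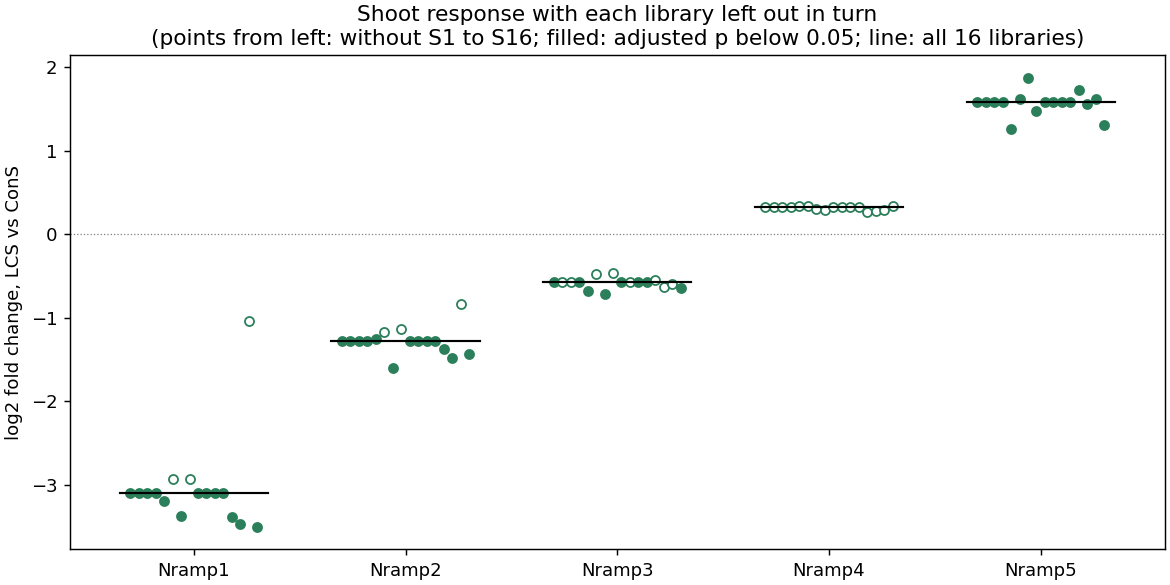
Log2 fold change of LCS vs ConS for the 5 Nramp genes with each of the 16 libraries left out in turn (points from left to right, without S1 to S16), with filled points for an adjusted p below 0.05 and a line at the value from all 16 libraries. Nramp5 is called in every omission, and Nramp1 moves from -3.10 to -1.04 when ConS S15 is left out.

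Nramp1 and Nramp2 were highest in the same library in all 4 groups. These libraries were LCR S1, LCS S7, ConR S11 and ConS S15. No other pair of members shared its highest library in more than 2 of the 4 groups. Of the other metal transporters on the study's list, OPT3, VIT5, YSL2, YSL9 and YSL14 were also highest in LCR S1, ConR S11 and ConS S15. Among the LCS libraries these genes were highest in S6 or S8 and not in S7. The share of all genes with such a pattern was not counted. Pearson's r between Nramp1 and Nramp2, on log2 CPM over the 16 libraries, was 0.536. In ConS S15, Nramp1 was 7.72-fold and Nramp2 2.16-fold above the next library of the group, while Nramp3 (35.4 CPM), Nramp4 (3.96 CPM) and Nramp5 (1.55 CPM) lay within or next to the range of the other ConS libraries. In ConR S11, Nramp1 was 2.99-fold and Nramp2 1.15-fold above the next library, and Nramp5 was the lowest of the group. ConR S11 and ConS S15 are the libraries that stood apart in many genes, and the part of this in the Nramp values was not tested.

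**Figure D4:**
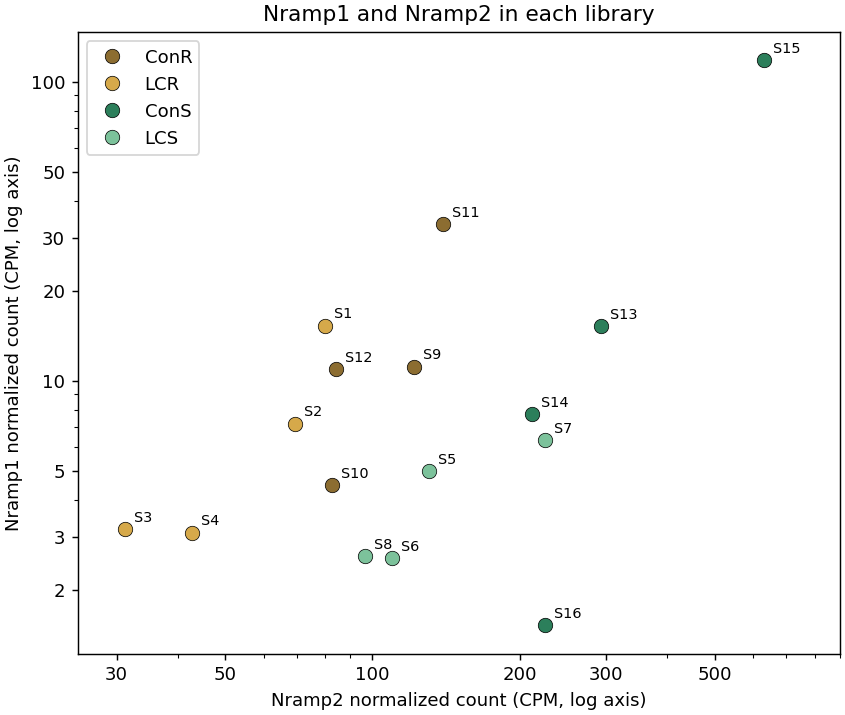
Normalized counts of Nramp1 against Nramp2 (CPM, log axes) in the 16 libraries, coloured by group and labelled by S number. The highest library of each group is the same for both genes (S1, S7, S11 and S15), and ConS S15 is at 632 CPM for Nramp2 and 118 CPM for Nramp1.

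The study listed 14 other metal transporter genes with these 5, namely Nramp6 (Et_10B_003591), the yellow stripe-like (YSL) carriers of chelated iron, the oligopeptide transporters (OPT) and the vacuolar iron transporters (VIT). The list was made by the study on these samples, so its counts are not independent evidence. In LCR vs ConR, 1 of the 14 genes was called up and 1 down, against 1.90% and 1.33% of all genes tested. In LCS vs ConS, 4 were called up and 1 down, against 16.7% and 9.04%. In LCR vs LCS, 6 were called up and 2 down, against 20.0% and 22.7%, and in ConR vs ConS, 8 up and 3 down, against 28.7% and 23.7%. The interaction test was passed by 1, against 5.91%. The median log2 fold change of the 14 genes for low Ca against control was 0.40 in roots and 0.32 in shoots, where that of all genes tested was 0.03 and 0.11. For roots against shoots it was 0.45 at low Ca and 1.50 at control Ca, where that of all genes was -0.03 and 0.10. With so few genes, the counts do not set the list apart.

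Nramp6 is the remaining gene of the family on that list. Its mean was 5.57 ± 1.29 CPM in control roots, 5.24 ± 1.14 CPM in low Ca roots, 2.99 ± 1.84 CPM in control shoots and 5.75 ± 0.636 CPM in low Ca shoots (SD, n = 4). It was called higher in LCS than in ConS, at a log2 fold change of 0.93 (SE 0.33, adjusted p = 0.0456), and higher in ConR than in ConS, at 0.88 (SE 0.32, adjusted p = 0.029), with overlapping libraries in both. The first call was kept in 3 and the second in 12 of the 16 omissions of 1 library, and without ConS S15 the values were 0.64 (adjusted p = 0.14) and 0.65 (adjusted p = 0.0836). Among the other genes, YSL16 had the largest tissue difference at control Ca, with a log2 fold change of 7.54 for ConR vs ConS (adjusted p = 6.12e-12), and the largest fall in roots under low Ca, -1.72 (adjusted p = 0.00263). YSL16 had only 7 to 13 reads in a ConS library. The largest rise in shoots was that of OPT4, from 3.99 ± 2.11 CPM in ConS to 40.2 ± 15.4 CPM in LCS (SD, n = 4), a log2 fold change of 3.32 (adjusted p = 2.81e-05), and OPT4 was the 1 gene of the 14 that passed the interaction test, at 2.11 (adjusted p = 0.029). That call was kept in 11 of the 16 omissions. Without ConR S11, which had 42.8 CPM of OPT4 where the other ConR libraries had 10.5 to 20.7, the value was 1.61 (adjusted p = 0.0553), and without ConR S11 and ConS S15 together it was 1.34 (adjusted p = 0.0699).

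Likeness of pattern was measured as Pearson's r of log2 CPM over the 16 libraries with the 104 other genes that the study named. These libraries share tissue and Ca level, and the tissue difference of a gene weighs most, so that r is given as a description. Among these genes, Nramp5 was most like the calcium-binding protein genes CBP12 (r = 0.986) and CBP11 (r = 0.983). Nramp4 was most like the calcium-dependent protein kinase gene CDPK2 (r = 0.977) and CBP11 (r = 0.972). Between the members Nramp4 and Nramp5, r was 0.973, above that of Nramp4 with CBP11. Nramp3 was most like the glutamate receptor-like genes GLR3.4-1 (r = 0.978) and GLR3.1 (r = 0.975). Nramp2 was most like CaME1 (r = 0.874), named as a mitochondrial proton/calcium exchanger, and the calcium uniporter gene CaUP3 (r = 0.864). For Nramp1 the highest values were lower, 0.660 with the calcium-transporting ATPase gene CaTA10-1 and 0.611 with GLR3.4-3. Of 56745 other genes tested, 7 and 17 had a higher r with Nramp5 than its 2 genes, 160 and 316 with Nramp4, 109 and 196 with Nramp3, 291 and 415 with Nramp2, and 191 and 349 with Nramp1.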

How the data were processed

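The authors trimmed the paired reads, aligned them to the tef reference genome with hisat2 and deposited the htseq-count counts per gene, made from uniquely mapped reads with the reverse-strand setting, without normalization or pooling. The methods do not describe the library kit as strand-marking, so reads of a gene and of an overlapping antisense gene may not be told apart. In that case the reverse-strand setting would also leave out reads of the gene itself that map to the other strand, which lowers its count. The share left out was not measured. Reads shared by near-identical copies of the A and B subgenomes are left out by unique mapping. The quasi-likelihood F-test of edgeR 4.0.16 (R 4.3.3, TMM scaling, 1 term per group over 16 libraries) was run on the 56746 genes that had reads in 4 or more libraries. SEs are the log2 fold change divided by the root of F, and the 95% intervals take 12 residual degrees of freedom. Alternatives were other scalings and filters, thinning to the smallest total, the 8 libraries of a comparison, other thresholds, DESeq2 1.42.0, limma-voom (limma 3.58.1) and the omission of each library. The omission of ConR S11 and ConS S15 together and the alternatives for Nramp6, OPT4 and YSL16 were added after seeing the data. The members, lists and tests were chosen with earlier results of these data known. Genes named are the 5 members, Nramp6 and some of the listed metal transporters with the largest change. Listed genes that shared highest libraries with Nramp1 and Nramp2 are named as well. For likeness, the 2 genes of highest r among those the study named, other than the 5 members, are given. The fit was tested on simulated data beforehand. Figures were drawn with Python 3.11.15. The qPCR, growth and mineral measurements were not analysed here.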

Additional observations from a re-analysis of the deposited data

Results flagged for a closer look

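Nramp1 in ConS S15 was at 118 CPM, where the other 3 ConS libraries lay between 1.52 and 15.2 CPM. The gap to the nearest library was 0.882 of the range of the group, past the 95% limit of Dixon's test for 4 values. Of the 20 combinations of a member and a group tested in this way this was the 1 that passed. Chance gives about 1 in 20 if the values are normally distributed. The test was run on CPM without a log transform, and it was not run on log2 CPM, where the gap may not pass.

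The response of Nramp5 to low Ca differed between shoots and roots by 2.83 on the log2 scale, by the interaction test of edgeR (SE 0.50, adjusted p = 0.00236). The level rose in 3 of 4 LCS libraries beyond the ConS range and fell in 4 of 4 LCR libraries below the ConR range.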

How the results depend on the processing

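The direction and call of the tissue differences of Nramp2, Nramp3, Nramp4 and Nramp5 and of the Nramp5 interaction were kept under every alternative run. With 1 library left out, the number of members called ranged from 1 to 4 in LCS vs ConS and from 0 to 1 in LCR vs ConR. It was 2 in LCR vs ConR on the 8 root libraries alone, 0 (LCR vs ConR) and 1 (LCS vs ConS) at an adjusted p below 0.01, and 1 in LCS vs ConS without ConR S11 and ConS S15 together. The sign of Nramp1 in ConR vs ConS turned with limma-voom (0.0031) and without ConR S11 and ConS S15 together (0.12), and with 1 library left out its value ranged from -2.01 to 0.86. The difference of responses ranged from -2.76 to 0.10 for Nramp1 and from -0.66 to 0.14 for Nramp2 with 1 library left out. The causes were not tested. Over all genes, DESeq2 called 4636 in LCR vs ConR where edgeR called 1832, and the omission of 1 library gave 429 to 3533. In shoots the counts were 16645 and 14619, and 9463 without LCS S8. Nramp5 had 7 to 21 reads in a ConS library, and Nramp1 had 20 in ConS S16 and 22 in LCS S6.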
